A study of Homo sapiens with 12 samples.

Results

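The genes described here are 51 genes of DNA replication and S phase, chosen by name for their part in copying the genome. The list was written with earlier results of these data known, so it is not independent of the response to doxycycline (Dox). They were found by gene symbol among the 33458 genes that the arrays name, and each gene was read from its brightest probe set. All 51 averaged 6.5 or more on the log2 scale across the arrays without Dox, and they stand among the 15194 genes that passed this filter. By role, 11 act in licensing, 7 in the replicative helicase and initiation, 8 in the polymerases, 7 in the clamp, its loader and the lagging strand, 3 in single-strand binding, 4 in nucleotide supply, 8 in fork protection and chromatin, and 3 in S phase entry and histone mRNA.

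Replication origins are licensed in G1, when the origin recognition complex, CDC6 and CDT1 load the MCM2-7 helicase onto DNA, and they fire in S phase, when CDC45 and the GINS complex join MCM2-7 to form the active CMG helicase. Polymerase alpha with primase then starts each strand, polymerases epsilon and delta extend it with the PCNA clamp, and the lagging strand fragments are trimmed and sealed. Many of these genes are transcribed in the late G1 and S phases of cycling cells through E2F sites in their promoters, so their RNA is abundant in proliferating cells such as tumour lines.

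RNA was measured in 2 established Ewing sarcoma cell lines, RDES and SK-N-MC, transduced with a Dox-inducible lentiviral vector that carried shCDS (a hairpin against the coding sequence of PRC1), shUTR (a hairpin against its untranslated region) or the non-targeting shCtrl. PRC1 encodes a microtubule-bundling protein needed for cytokinesis. Each of these 6 derivative lines was kept with 1 µg/ml Dox for 60 h, renewed at 48 h, or without Dox, and total RNA of each condition was hybridized to 1 Clariom D array, 12 in all. The infected cells were selected with puromycin, and all lines, controls included, carry the vector. The hairpin targets are shown because the shPRC1 lines carry 1 of 2 hairpins against the same transcript, which is encoded on chromosome 15. Capitals mark the whole target.
shCDS target in PRC1: CAGGAACATTCAAAGGCATTT
shUTR target in PRC1: GCCTGACTTCTCTACCACATA

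PRC1 checks whether a line carries a hairpin against it, and cannot tell shCDS from shUTR. Its log2 signal was 10.54 with and 14.50 without Dox in RDES shCDS cells, 13.29 and 14.75 in RDES shUTR cells, 11.55 and 15.56 in the shCDS line of SK-N-MC and 12.66 and 15.59 in its shUTR line, while it differed by −0.03 and −0.11 in the pairs labelled RDES shCtrl and SK-N-MC shCtrl. The arrays labelled RDES shCtrl lay with SK-N-MC. Over 936 genes at least 2 log2 apart between the RDES and SK-N-MC shPRC1 arrays without Dox, on a scale where SK-N-MC is 0 and RDES is 1, their median positions were 0.058 with and 0.050 without Dox, against 0.165 and 0.198 for the arrays labelled SK-N-MC shCtrl. Results that use this pair are therefore given with and without it. Of 12 Ewing sarcoma markers, 11 were named on the arrays and all 11 passed the filter, CD99 and FLI1 among them. Of the markers of other cells that the arrays name, 7 of 8 fibroblast markers passed, while only VWF and EMCN of 7 endothelial, SPI1 of 6 haematopoietic and KRT8 and KRT18 of 6 epithelial markers did. The summed fibroblast marker signal was 13.03 with and 13.31 without Dox in RDES shCDS cells, on a log2 scale, and ran from 13.03 to 14.58 over the 12 arrays, and its part in the results was not tested. The Dox (+) minus Dox (−) median over all genes was −0.05 in RDES shCDS, 0.17 in RDES shUTR, 0.07 in SK-N-MC shCDS, −0.15 in SK-N-MC shUTR, −0.07 in the pair labelled RDES shCtrl and 0.11 in SK-N-MC shCtrl, all on the log2 scale.

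In RDES shCDS cells, all 51 genes had a lower signal with Dox than without it, with a median difference of −1.07 log2, so that the typical gene was at 47.8% of its level without Dox. In this line 46 of the 51 were lower by at least 0.5 log2 and 29 by at least 1 log2, while 16.3% of all genes were lower by at least 0.5 log2, 3.97% by at least 1 log2, and 55.7% lay below 0. None of the 51 was higher by at least 0.5 log2 (9.1% of all genes). The differences spanned −2.21 for MCM10 to −0.20 for RPA2, and the middle of the list lay between −1.33 and −0.86 (quartiles). The 5 genes that stayed within 0.5 log2 were RPA2, POLD1, POLE2, RPA3 and GINS4. The RDES shCDS array with Dox had the lowest signal of all 12 arrays for 45 of the 51 genes, against 14.8% of all genes, and the exceptions were GINS4, MCM8, POLD1, POLD3, FEN1 and RPA2. Each condition is a single array, so these differences have no replicate within the line and no test. The arrays measure bulk RNA, in which fewer cells in S phase and less RNA per cell cannot be told apart.

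**Figure D1:**
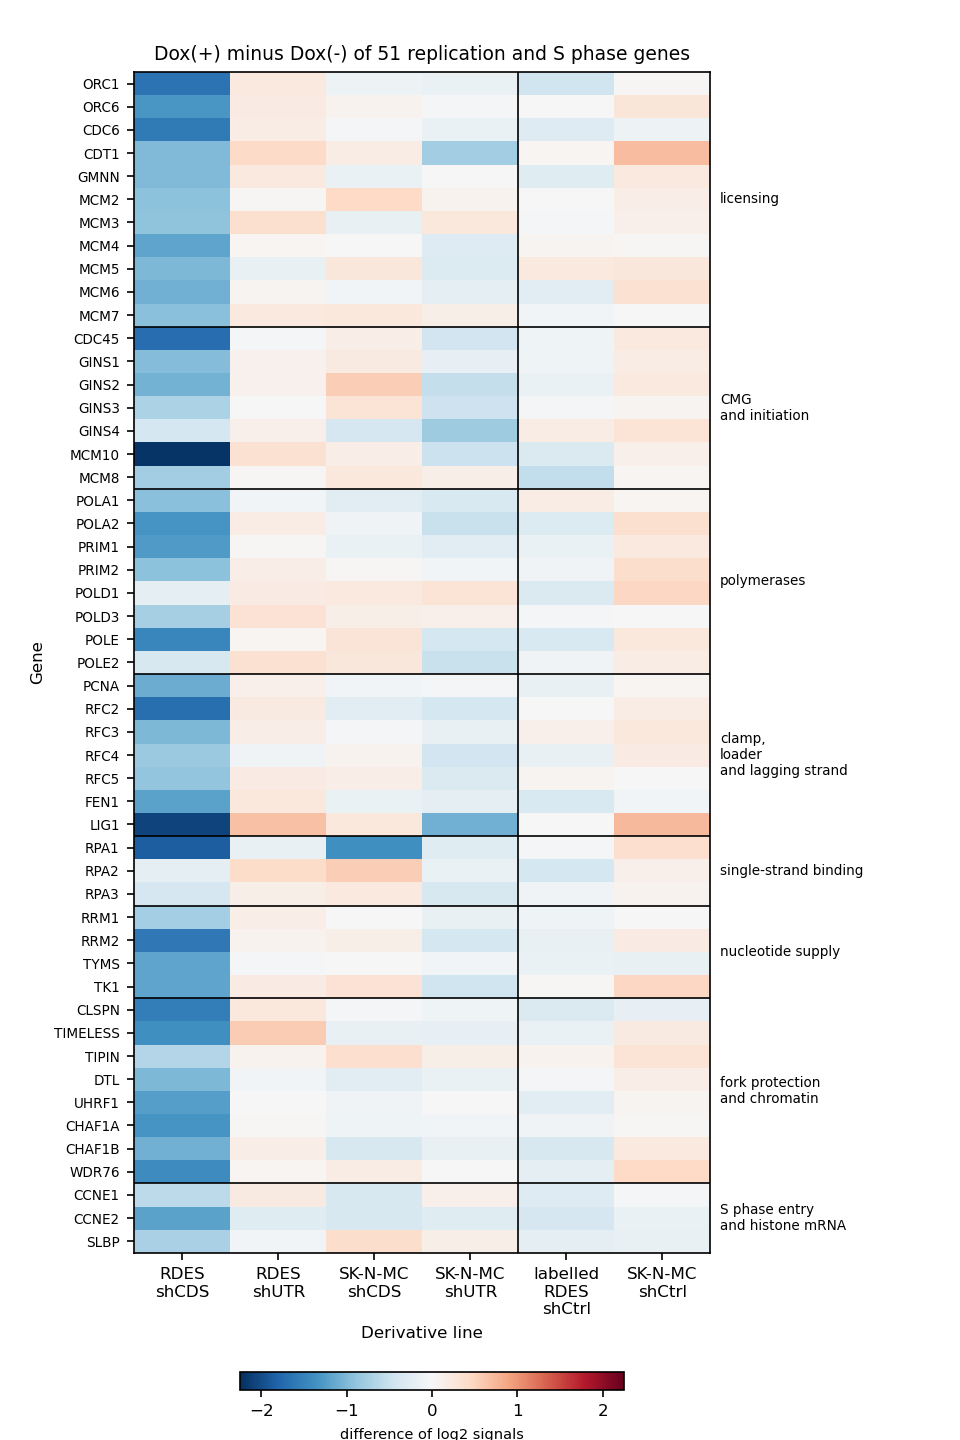
Dox (+) minus Dox (−) difference of log2 signals (colour, blue lower with Dox) for the 51 genes (rows, by role) in the 6 derivative lines (columns). The RDES shCDS column is blue from MCM10 at −2.21 to RPA2 at −0.20, and RPA1 at −1.39 is the darkest cell of the SK-N-MC shCDS column.

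The promoters are shown because the list was named for a phase in which E2F factors act. Of the 51 genes, 43 matched the RefSeq promoter table (GRCh38.p14, 250 bases before to 50 bases after each start site), and MCM4, MCM5, GINS4, POLD3, RPA2, RPA3, WDR76 and CCNE2 did not. The letters TTTCCCGC, TTTCGCGC, TTTGCCGC and TTTGGCGC, forms of the E2F motif, were searched on both strands. They occurred in 21 of 43 promoters (48.8%), against 5.53% of the 9351 promoters of genes above the filter and 3.33% of all 27305 promoters. Below are 30-base windows of the 6 genes with the most negative RDES shCDS differences among the 21, with the first match in capitals, each written in the direction of its gene.
LIG1 (chr19:48170440-48170469, minus strand): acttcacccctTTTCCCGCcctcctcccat
CDC6 (chr17:40287875-40287904, plus strand): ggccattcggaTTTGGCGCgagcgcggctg
CLSPN (chr1:35769965-35769994, minus strand): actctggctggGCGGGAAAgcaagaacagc
POLE (chr12:132687342-132687371, minus strand): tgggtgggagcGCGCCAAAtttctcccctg
POLA2 (chr11:65261898-65261927, plus strand): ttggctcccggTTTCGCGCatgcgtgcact
UHRF1 (chr19:4909476-4909505, plus strand): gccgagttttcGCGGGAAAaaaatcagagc
The match began 114 bases before the RefSeq start site in LIG1, 53 in POLA2, 18 in POLE, 14 in UHRF1 and 5 in CLSPN, and 7 bases after it in CDC6. The RDES shCDS difference had a median of −1.02 over the 21 genes with a match and −1.19 over the 22 without one. MCM10, RPA1, CDC45, RFC2, ORC1 and RRM2, with differences between −2.21 and −1.61, held none of these letters in this window. A match is a description of the letters and was not tested as a binding site.

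Licensing factors were lower with Dox in RDES shCDS cells in 11 of 11 cases, each by at least 0.5 log2, with a median of −1.02. CDC6, the ATPase that helps to load the MCM ring, had a log2 signal of 13.11 with and 14.70 without Dox in RDES shCDS cells, 14.41 and 14.24 in RDES shUTR cells, 14.55 and 14.59 in the shCDS line of SK-N-MC, 14.43 and 14.58 in its shUTR line, 14.68 and 14.96 in the pair labelled RDES shCtrl and 14.30 and 14.41 in SK-N-MC shCtrl cells. The RDES shCDS array with Dox thus lay more than 1 log2 below the other 11 arrays, which were close together. ORC1, the largest subunit of the origin recognition complex, was at 10.17 with and 11.83 without Dox in RDES shCDS cells. It spanned 10.55 to 11.87 on the other 10 arrays. The low end came from the SK-N-MC shPRC1 arrays, while the SK-N-MC shCtrl arrays were at 11.445 with and 11.425 without Dox. ORC6, another subunit of that complex, differed by −1.31, CDT1, the loading factor that works with CDC6, by −0.98, and GMNN, the inhibitor of CDT1, by −1.00. The 6 subunits of the MCM2-7 ring had similar differences in RDES shCDS cells, at −0.91 for MCM2, −0.91 for MCM3, −1.19 for MCM4, −1.02 for MCM5, −1.09 for MCM6 and −0.94 for MCM7. MCM7 was at 15.19 with and 16.13 without Dox there and at 16.13 to 16.73 on the other 10 arrays, so that its value with Dox stood alone.

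Of the 7 genes of the helicase and initiation, 6 were lower by at least 0.5 log2 in RDES shCDS cells, with a median of −0.97. MCM10, which acts when the assembled helicase starts to unwind DNA, lies on chromosome 10 from 13161558 to 13211110 (GRCh38.p14) and had the most negative difference of the 51 genes. Its log2 signal was 7.23 with and 9.44 without Dox in RDES shCDS cells, 9.48 and 9.14 in RDES shUTR cells, 8.76 and 8.62 in the shCDS line of SK-N-MC, 8.14 and 8.63 in its shUTR line, 8.22 and 8.53 in the pair labelled RDES shCtrl and 8.54 and 8.42 in SK-N-MC shCtrl cells. The RDES shCDS signal with Dox was 21.6% of that without it, and no other line came near this. CDC45, a subunit of the CMG helicase, was at 9.02 with and 10.73 without Dox in RDES shCDS cells, 10.80 and 10.84 in RDES shUTR cells, 12.43 and 12.28 in the shCDS line of SK-N-MC, 11.98 and 12.41 in its shUTR line, 11.84 and 11.94 in the pair labelled RDES shCtrl and 11.90 and 11.67 in SK-N-MC shCtrl cells. Here the arrays labelled RDES shCtrl again lay near SK-N-MC, and only RDES shCDS cells showed a difference above 0.5 log2. The GINS subunits were less even, at −0.97 for GINS1, −1.07 for GINS2, −0.71 for GINS3 and −0.39 for GINS4 in RDES shCDS cells. For GINS3, the mean of its 3 probe sets differed by −0.19 there, but the probe sets not used were dim. Their means were 5.01 and 4.74, against 11.16 for the one used. GINS4 was the exception of the group, since its most negative difference was −0.81 in SK-N-MC shUTR cells. MCM8, a helicase best known from homologous recombination, differed by −0.78 in RDES shCDS cells and by −0.55 in the pair labelled RDES shCtrl.

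Of the 8 polymerase genes, 6 were lower by at least 0.5 log2 in RDES shCDS cells (median −0.93), and the catalytic and accessory subunits of one enzyme did not always have like differences. POLE, the catalytic subunit of the leading strand polymerase epsilon, was at 10.34 with and 11.80 without Dox in RDES shCDS cells, 11.50 and 11.44 in RDES shUTR cells, 11.23 and 10.95 in the shCDS line of SK-N-MC, 10.56 and 10.95 in its shUTR line, 11.09 and 11.44 in the pair labelled RDES shCtrl and 11.05 and 10.82 in SK-N-MC shCtrl cells. POLE2, its second subunit, differed by −0.36 in RDES shCDS cells and by −0.497 in SK-N-MC shUTR cells. A dimmer POLE probe set, with a mean of 6.20, differed by 0.15 in RDES shCDS cells, and the mean of both probe sets by −0.66, against −1.46 for the brighter one. All 4 genes of the polymerase alpha and primase complex were lower in RDES shCDS cells, at −0.94 for POLA1, −1.34 for POLA2, −1.28 for PRIM1 and −0.92 for PRIM2. For polymerase delta, which extends the lagging strand, POLD3 differed by −0.75 and the catalytic POLD1 by −0.21. POLD1 had a mean of 6.68 over the arrays without Dox, close to the filter, and its signal stayed between 6.31 and 7.09 on the 10 arrays of the other lines.

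Clamp, loader and lagging strand genes were lower by at least 0.5 log2 in 7 of 7 cases in RDES shCDS cells, with a median of −1.12. PCNA, the sliding clamp that holds polymerases on DNA, was at 13.88 with and 15.00 without Dox in RDES shCDS cells, 15.12 and 15.00 in RDES shUTR cells, 15.01 and 15.07 in the shCDS line of SK-N-MC, 15.07 and 15.11 in its shUTR line, 14.66 and 14.81 in the pair labelled RDES shCtrl and 14.74 and 14.71 in SK-N-MC shCtrl cells. The other 3 shPRC1 lines differed by 0.12, −0.07 and −0.04 in that order, so that only RDES shCDS cells were low. Of the clamp loader genes, RFC2 differed by −1.69, RFC3 by −1.02, RFC4 by −0.84 and RFC5 by −0.89 in RDES shCDS cells. A dimmer RFC3 probe set, with a mean of 6.46, differed by −0.45 there and by 0.45 in SK-N-MC shCDS cells. FEN1, the nuclease that trims the 5′ flaps of Okazaki fragments, differed by −1.20 in RDES shCDS cells.

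LIG1, the ligase that seals Okazaki fragments, had the widest span of differences over the 6 derivative lines among the 51 genes. It was at 5.29 with and 7.36 without Dox in RDES shCDS cells, 7.46 and 6.81 in RDES shUTR cells, 8.10 and 7.86 in the shCDS line of SK-N-MC, 7.37 and 8.45 in its shUTR line, 8.12 and 8.11 in the pair labelled RDES shCtrl and 7.98 and 7.25 in SK-N-MC shCtrl cells. Its differences were −2.07 and 0.65 for RDES with shCDS and with shUTR, 0.24 and −1.08 for SK-N-MC with shCDS and with shUTR, and 0.73 in SK-N-MC shCtrl cells, which carry no hairpin against PRC1. The value of 5.29 is close to the array's median over all probe sets (5.34), so the probe set was dim there.

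The single-strand binding genes encode the RPA trimer that coats unwound DNA, and its 3 subunits had unlike differences. RPA1, the largest subunit, lies on chromosome 17 from 1830005 to 1900082 (GRCh38.p14). It was at 11.62 with and 13.47 without Dox in RDES shCDS cells, 13.57 and 13.74 in RDES shUTR cells, 13.74 and 15.12 in the shCDS line of SK-N-MC, 14.98 and 15.25 in its shUTR line, 15.06 and 15.10 in the pair labelled RDES shCtrl and 15.05 and 14.67 in SK-N-MC shCtrl cells. RPA1 was therefore low with Dox in both lines that carry shCDS, with differences of −1.85 in RDES and −1.39 in SK-N-MC, beside −0.17 and −0.27 in the RDES and SK-N-MC lines that carry shUTR. It was the only one of the 51 genes lower by at least 0.5 log2 in SK-N-MC shCDS cells, where 8.44% of all genes were. RPA2 differed by −0.20 in RDES shCDS cells and by 0.55 in SK-N-MC shCDS cells, and RPA3 by −0.38 and 0.21.

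Nucleotide supply genes were lower by at least 0.5 log2 in 4 of 4 cases in RDES shCDS cells, with a median of −1.19. RRM2, the small subunit of ribonucleotide reductase that limits dNTP supply in S phase, was at 12.24 with and 13.86 without Dox in RDES shCDS cells, 13.96 and 13.88 in RDES shUTR cells, 13.91 and 13.78 in the shCDS line of SK-N-MC, 13.51 and 13.91 in its shUTR line, 13.81 and 13.98 in the pair labelled RDES shCtrl and 13.81 and 13.63 in SK-N-MC shCtrl cells. RRM1, the large subunit, differed by −0.76 in RDES shCDS cells, less than the brightest RRM2 probe set at −1.61. A dimmer RRM2 probe set, with a mean of 6.79, differed by −0.87 there and by 0.59 in SK-N-MC shUTR cells. TYMS, the thymidylate synthase, differed by −1.18 there and by −0.03, −0.02 and −0.07 in RDES shUTR, SK-N-MC shCDS and SK-N-MC shUTR cells. TK1, the thymidine kinase of S phase, differed by −1.19 in RDES shCDS cells.

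**Figure D2:**
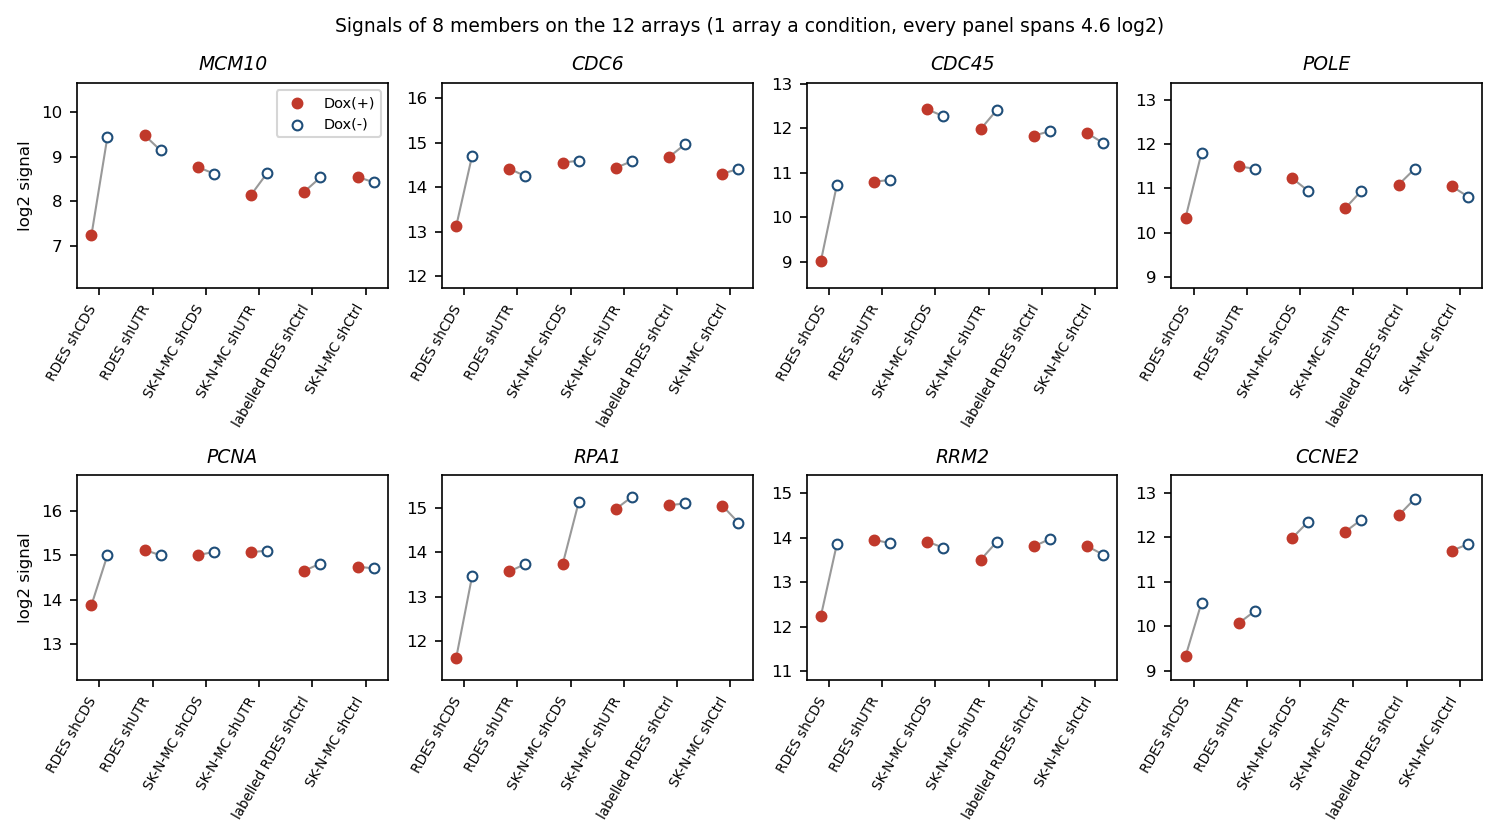
Log2 signal (vertical axis, 4.6 log2 in every panel) of 8 of the genes on the 12 arrays, by derivative line (horizontal axis), with Dox (+) filled and Dox (−) open. The Dox (+) point of RDES shCDS is the lowest of each panel, and the filled RPA1 point is also low for SK-N-MC shCDS.

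Fork protection and chromatin genes were lower by at least 0.5 log2 in 8 of 8 cases in RDES shCDS cells, and their median of −1.28 was the most negative of the 8 roles. CLSPN, the adaptor through which ATR activates CHK1, was at 12.20 with and 13.76 without Dox in RDES shCDS cells, and TIMELESS, of the fork protection complex, was at 10.01 and 11.39. TIPIN, which binds TIMELESS, was at 10.79 with and 11.44 without Dox there. DTL, the substrate receptor that removes CDT1 in S phase, differed by −1.00. UHRF1, which recognises hemimethylated DNA, was at 11.50 with and 12.74 without Dox in RDES shCDS cells and between 12.09 and 12.58 on the other 10 arrays. CHAF1A and CHAF1B, subunits of the chromatin assembly factor that deposits histones behind the fork, differed by −1.32 and −1.08. WDR76 differed by −1.42 in RDES shCDS cells and lay between 0.01 and 0.16 in the other 3 shPRC1 lines. Of these 8 genes, 7 lay at least 1 log2 lower in RDES shCDS cells, and TIPIN did not.

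The 3 genes of S phase entry and histone mRNA were lower by at least 0.5 log2 in RDES shCDS cells, with a median of −0.73. CCNE2, a cyclin that activates CDK2 at the start of S phase, was at 9.32 with and 10.53 without Dox in RDES shCDS cells, 10.07 and 10.34 in RDES shUTR cells, 11.98 and 12.35 in the shCDS line of SK-N-MC, 12.12 and 12.40 in its shUTR line, 12.49 and 12.86 in the pair labelled RDES shCtrl and 11.70 and 11.84 in SK-N-MC shCtrl cells. CCNE2 was lower with Dox in all 6 pairs, the shCtrl pairs included, and by most in RDES shCDS cells. The related cyclin CCNE1 differed by −0.59, and SLBP, which binds the stem-loop of histone mRNAs, by −0.73 in RDES shCDS cells.

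The other lines gave no such picture over the whole list. Among them, the most negative median of a role was −0.47, for the helicase and initiation in SK-N-MC shUTR cells. There 6 of its 7 genes lay below 0, as did 10016 of all 15194 genes, whose median was −0.15. In the same line the clamp, loader and lagging strand had −0.32, and S phase entry and histone mRNA 0.11. In RDES shUTR cells the median of the 51 genes was 0.13, none was lower by at least 0.5 log2 (3.34% of all genes were), and LIG1 at 0.65 and TIMELESS at 0.57 were higher by that much (15.5% of all genes). In SK-N-MC shCDS cells the median was 0.02, and GINS2 at 0.56 and RPA2 at 0.55 were higher by at least 0.5 log2 (11.4% of all genes) beside RPA1, which was lower. In SK-N-MC shUTR cells the median was −0.18, with LIG1 at −1.08, GINS4 at −0.81, CDT1 at −0.78 and GINS2 at −0.53 lower by at least 0.5 log2 (19.5% of all genes) and none higher (5.62%). Without hairpins against PRC1, the median was −0.10 in the pair labelled RDES shCtrl, where MCM8 alone was lower by at least 0.5 log2 (3.48% of all genes) and none was higher (1.66%). In SK-N-MC shCtrl cells the median was 0.16, LIG1 at 0.73 and CDT1 at 0.69 were higher by at least 0.5 log2 (10.8% of all genes), and none was lower (4.69%). In these 5 lines the median of the 51 genes minus the median over all genes of the same line ran from −0.05 to 0.05, against −1.01 in RDES shCDS cells.

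The most negative of the 4 shPRC1 differences was that of RDES shCDS cells for 49 of the 51 genes, against 32.9% of all genes, and the exceptions were GINS4 and POLE2. POLA1, RPA1, TYMS, DTL, UHRF1 and CCNE2 lay below 0 in all 4 shPRC1 lines, which is 6 of 51 genes against 5.09% of all genes. PRC1 itself was at 6.42% of its level without Dox in RDES shCDS cells and at 36.2%, 6.18% and 13.1% in RDES shUTR, SK-N-MC shCDS and SK-N-MC shUTR cells. The PRC1 shares of RDES shCDS and SK-N-MC shCDS cells were thus close, and the medians of the 51 genes were −1.07 and 0.02. Whether the PRC1 share bears on the 51 genes was not tested.

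With the derivative lines as replicates, none of the 51 genes passed the test for an effect of Dox shared by the shPRC1 lines. When each cell line's labelled shCtrl difference was subtracted, the mean difference had a median of −0.27 over the 51 genes and 46 lay below 0 (51.3% of all genes), but 0 of the 51 genes and 0.0% of all genes reached an adjusted p of 0.05 by limma with Benjamini-Hochberg adjustment. At an unadjusted p under 0.05 there were 1 of the 51 and 400 of all 15194 genes. Without subtraction, which leaves both shCtrl pairs out, the median was −0.30, 49 lay below 0 (47.5% of all genes), again 0 of the 51 genes and 0.0% of all genes passed limma, and 2 of the 51 and 812 of all genes had an unadjusted p under 0.05. With only the SK-N-MC shCtrl difference subtracted from all 4 lines the median was −0.44. Without the SK-N-MC shCtrl pair it was −0.34, but that value compares only the RDES shPRC1 lines with the pair labelled RDES shCtrl. The SK-N-MC lines do not enter it, and each of these fits rests on a single shCtrl difference. Without the RDES shCDS line, the medians were −0.02 after subtraction and −0.01 without it, and without the RDES shUTR line they were −0.55 and −0.42. RPA1 had the most negative mean of the 51 genes, at −1.09 ± 0.83 after and −0.92 ± 0.83 without subtraction (SD, n = 4 lines), with adjusted p = 0.999 and 0.867 by limma. The p-values measure the spread between derivative lines that differ in cell line and hairpin. Precision is limited by how few arrays there are.

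The difference between the hairpins and that between the cell lines were tested on the 4 shPRC1 lines, without the shCtrl arrays. The Dox difference of shCDS minus shUTR had a median of −0.52 over the 51 genes, 47 lay below 0 (51.7% of all genes), and 0 passed limma while 0.105% of all genes did. At an unadjusted p under 0.05 there were 4 of the 51, namely RPA1, MCM10, TIMELESS and ORC1, and 629 of all 15194 genes. RPA1 had the most negative value at −1.40 with a 95% interval of −2.29 to −0.51 and an adjusted p of 0.429 by limma. The Dox difference of RDES minus SK-N-MC had a median of −0.42, 48 lay below 0 (40.2% of all genes), and 0 of the 51 passed, as did 0.0856% of all genes, and 0 of the 51 and 649 of all genes had an unadjusted p under 0.05. Without RDES shCDS cells the medians were 0.01 and 0.20, in fits with the tested term alone. Hairpin and cell line are mixed in those values, so they are not a like comparison with −0.52 and −0.42. The fits on all 4 lines had terms for hairpin and cell line and 1 residual degree of freedom. In them limma gave every gene the same standard error of 0.45 log2. For MCM10 the RDES minus SK-N-MC value was −0.76 (95% interval −1.65 to 0.13). Without the RDES shUTR line and without the hairpin term it was −2.03 with adjusted p = 0.0201 by limma, a fit in which RDES shCDS is the single RDES line and is assumed to vary like the 2 SK-N-MC lines. Without RDES shCDS and the hairpin term it was 0.51.

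Other cell cycle genes were counted in the same way. In RDES shCDS cells, 16.3% of all genes were lower and 9.1% higher by at least 0.5 log2. In that line 3.97% of all genes were lower by at least 1 log2. Of 30 G2/M genes listed by name, all 30 were lower by at least 0.5 log2 in RDES shCDS cells, with a median of −1.48, and AURKB (−2.42), FOXM1 (−2.65) and KIF11 (−1.93), a mitotic kinase, a transcription factor of G2/M genes and a spindle motor, had the largest mean differences over the 4 lines. Of 42 further replication genes above the filter, 25 were lower and 4 higher by at least 0.5 log2 in RDES shCDS cells, with a median of −0.73. The largest mean differences of this list were those of ESCO2 (−1.53 in RDES shCDS cells), an acetyltransferase that acts on cohesin in S phase, E2F7 (−1.38), an atypical E2F repressor, and CDCA7 (−1.20), which also differed by −1.03 in SK-N-MC shUTR cells. Of 22 genes of G1/S control, 8 were lower by at least 0.5 log2 there, each of them by at least 1 log2, with a median of −0.33. Among these were E2F1, a transcription factor of S phase genes, at −1.93, CDK2, the kinase that the E cyclins activate, at −1.53, and RBL1, a relative of the retinoblastoma protein, at −1.37. In SK-N-MC shUTR cells, where 19.5% of all genes were lower by at least 0.5 log2, 7 of the 30 G2/M genes, 8 of the 42 further replication genes and 5 of the 22 genes of G1/S control were, beside 4 of the 51. In SK-N-MC shCDS cells, where 8.44% of all genes were, the counts were 3 of 30 (AURKB at −0.96 and FOXM1 at −0.62 among them), 0 of 42 and 1 of 22, beside 1 of the 51. Whether these lists differ from each other was not tested.

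**Figure D3:**
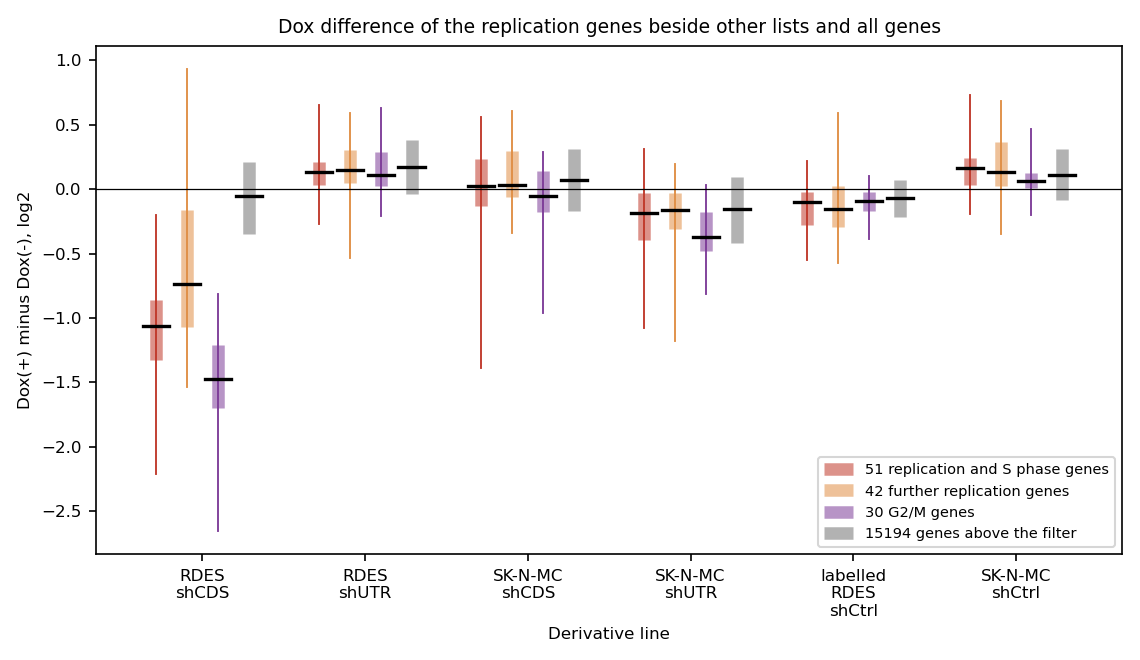
Dox (+) minus Dox (−) in log2 (vertical axis) for 4 sets of genes in the 6 derivative lines (horizontal axis), with the median (black bar), the quartiles (thick bar) and, except for all genes, the lowest and highest value (thin line). In RDES shCDS cells the medians were −1.07 for the 51 genes, −0.73 for the further replication genes, −1.48 for G2/M genes and −0.05 for all genes.

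Promoter letters of these lists stand side by side here. The form TTTGAA of the CHR, an element of G2/M gene promoters, was searched on both strands and occurred in 15 of 24 G2/M promoters (62.5%), in 1 of the 43 promoters of the genes described here (2.33%), in 4 of 35 promoters of the further replication genes (11.4%), in 10.6% of promoters of genes above the filter and in 15.4% of all promoters. The E2F letters given above occurred in 2 of the 24 G2/M promoters (8.33%) and in 7 of the 35 of the further replication genes (20%). The letters CCAAT, on either strand, occurred in 25 of the 43 promoters (58.1%), in 18 of the 24 (75%), in 18 of the 35 (51.4%), in 37.9% of promoters of genes above the filter and in 35.7% of all promoters. None of the motifs searched contains another, although matches may overlap.

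Before induction, the 2 cell lines differed in many of the 51 genes. On the shPRC1 arrays without Dox, 20 of the 51 genes differed between RDES and SK-N-MC (limma, adjusted p at most 0.05, 2 arrays for each cell line), 9 higher and 11 lower in RDES, while 34.8% of all genes did, 13.9% higher and 20.9% lower. The share among the 51 was thus near that of all genes, and their median difference was 0.02. The 2 arrays of a cell line are its shCDS and shUTR derivative lines. The p-values therefore rest on the spread between derivatives of the same parent line, and the SK-N-MC shCtrl line was not in this fit. CCNE2 was at 10.53 and 10.34 in RDES, against 12.35 and 12.40 in SK-N-MC, a difference of −1.94 ± 0.20 log2 (SE) with adjusted p = 0.00042 by limma. CDC45 was at 10.73 and 10.84 in RDES, against 12.28 and 12.41 in SK-N-MC, a difference of −1.56 ± 0.20 log2 (SE) with adjusted p = 0.0011 by limma. GINS4 went the other way, at 10.80 and 11.06 in RDES, against 9.32 and 9.24 in SK-N-MC, a difference of 1.65 ± 0.21 log2 (SE) with adjusted p = 0.0010 by limma.

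Subunits of a complex differed in opposite directions between the cell lines. Of the RPA trimer, RPA1 (−1.58) and RPA3 (−1.46) were lower and RPA2 (1.33) was higher in RDES. Of polymerase epsilon, POLE2 was lower (−1.23), and POLE was higher (0.67) but passed in 3 of 9 settings, with adjusted p between 0.0124 and 0.327 by limma. Of the CMG helicase, CDC45 was lower and GINS4 higher while GINS1, GINS2 and GINS3 did not pass. TK1 (−1.39), LIG1 (−1.07), PRIM2 (−0.98), GMNN (−0.89), CCNE1 (−0.72) and CHAF1A (−0.64) were also lower in RDES, and CLSPN (1.17), ORC1 (1.01), ORC6 (0.92), MCM8 (0.89), FEN1 (0.76) and MCM10 (0.66) were also higher. Over the 9 settings MCM10 ran from 0.28 to 0.81 and, like POLE, passed in 3, while FEN1 and CHAF1A each passed in 5. None of MCM2 to MCM7 passed. All 9 settings used shPRC1 arrays only. The SK-N-MC shCtrl array without Dox had a median position of 0.43 over the 11 genes at least 1 log2 apart. On that scale SK-N-MC is 0 and RDES is 1, and 7 of the 11 lay nearer SK-N-MC. CLSPN was at 13.40 there, against 12.36 and 12.54 on the SK-N-MC shPRC1 arrays without Dox, so its difference did not extend to that line. The count of 20 fell to 12 without the SK-N-MC shCDS array and to 10 without the SK-N-MC shUTR array, and 9 of the 20 genes passed under all 8 alternatives run, namely CCNE2, RPA1, CDC45, RPA3, TK1, POLE2, GINS4, RPA2 and CLSPN.

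**Figure D4:**
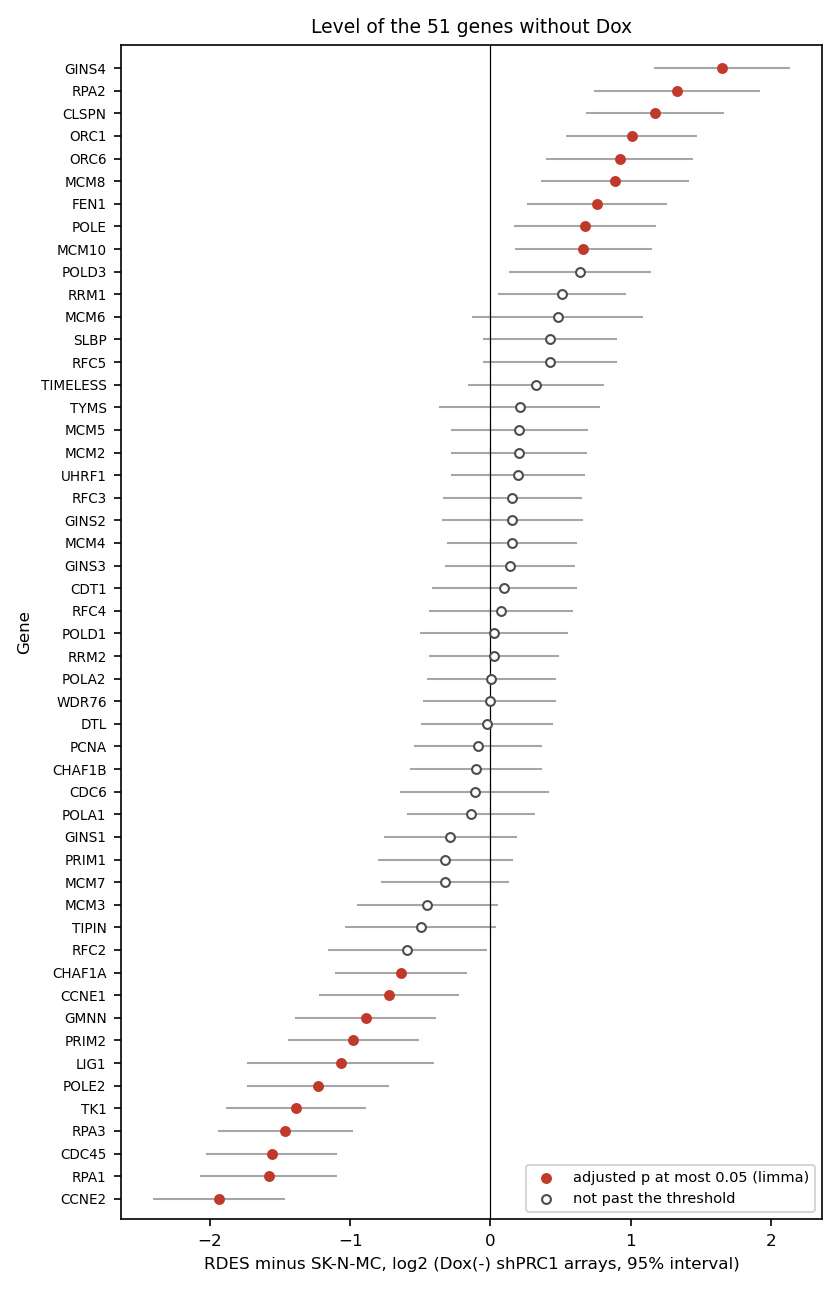
Difference of log2 signals, RDES minus SK-N-MC, on the shPRC1 arrays without Dox (horizontal axis, with 95% interval) for the 51 genes (vertical axis, in order of the difference), with filled points for an adjusted p at most 0.05 by limma. The ends of the order are GINS4 at 1.65 and CCNE2 at −1.94.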

How the data were processed

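The authors hybridized total RNA to Clariom D arrays and deposited log2 signals per probe set made with SST-RMA, which includes background correction and quantile normalization. The software is Transcriptome Analysis Console in the methods and Expression Console in the series text, and RMA and hg38 are listed in the submitters' processing notes. Quantile normalization draws the arrays' distributions together (medians over probe sets were 5.29 to 5.40), so a change shared by most genes could be reduced. Of 135750 probe sets, 36176 had a single symbol, and 623 symbols were updated through RefSeq. The brightest probe set stood for each of 33458 genes, and 15194 averaging 6.5 or more without Dox were kept. All columns of the table were used.

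Dox (+) minus Dox (−) was formed in each derivative line and called at 0.5 log2 without a test. Differences and levels were fitted across all genes with limma 3.58.1 in R 4.3.3 (eBayes, two-sided, Benjamini-Hochberg adjustment, threshold 0.05), and the fits were tested on simulated data. The fit after subtraction used 6 differences with terms for cell line and shPRC1, and its coefficient equals the mean difference after the subtraction that the study's methods describe. Alternatives were no filter, the mean of probe sets, centred differences, another prior variance, other shCtrl subtractions, unpaired arrays, a call at 1 log2, and each line or array left out. All 51 genes are named, with PRC1 and up to 3 genes of each further list with the largest mean difference in size. BGN and STAG2, which tell the cell lines apart, were also to be named. STAG2 was at 13.78 with and 14.01 without Dox in RDES shCDS cells, against 6.01 and 6.10 for the pair labelled RDES shCtrl and 9.32 and 9.15 in SK-N-MC shCtrl cells, where the SK-N-MC shPRC1 arrays lay at 5.84 to 6.06. On STAG2 the SK-N-MC shCtrl pair thus also stood apart from its cell line. BGN was at 4.78 and 4.42 in RDES shCDS cells, against 15.67 and 15.59 for the pair labelled RDES shCtrl and 15.66 and 15.51 in SK-N-MC shCtrl cells. The genes and lists were chosen with earlier results of these data known. Promoters were read from the RefSeq table, and genomic sequence was not used.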

Additional observations from a re-analysis of the deposited data

Results flagged for a closer look

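Among the 4 shPRC1 differences of a gene, 8 of the 51 genes had an RDES shCDS value set apart from the other 3 lines by Dixon's test at its 95% critical value. They were ORC6 at −1.31 (other lines −0.02 to 0.19), MCM7 at −0.94 (0.13 to 0.25), PCNA at −1.12 (−0.07 to 0.12), TYMS at −1.18 (−0.07 to −0.02), UHRF1 at −1.23 (−0.09 to −0.0017), CHAF1A at −1.32 (−0.10 to 0.03), WDR76 at −1.42 (0.01 to 0.16) and CCNE2 at −1.21 (−0.37 to −0.27). Chance flags about 1 in 20 groups, and the genes share the same 8 arrays, so these are not 8 separate observations. What sets the RDES shCDS pair apart was not tested.

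Opposite signs in every line of 2 groups were found for 4 genes, and a comparison of signs is no test. The Dox difference of shCDS minus shUTR was −0.68 for GMNN, −0.84 for MCM3 and −0.64 for CCNE1, with both shCDS lines below 0 and both shUTR lines above 0. The Dox difference of RDES minus SK-N-MC was −0.66 for SLBP, with both RDES lines below 0 and both SK-N-MC lines above 0. Tested with limma in the fits of the same contrasts, 0 of these 4 passed (adjusted p between 0.99985 and 0.99999).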

How the results depend on the processing

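Of the 51 genes (the members), 0 passed in both fits of the effect shared by the shPRC1 lines and in that of shCDS minus shUTR under every alternative run, including arrays without the derivative line as a pair (no replicate block), where 0 passed in both fits. The members' median without the block was −0.27 after and −0.30 without subtraction. Over all genes, 0 passed each shared fit, 1 without the filter when nothing was subtracted, and 0 to 1 when a line was left out of either fit. For shCDS minus shUTR, 16 genes passed, 31 without the filter, 3 with a trended and robust prior, 0 with centred differences and 0 to 35 when a line was left out (4 without RDES shCDS, 0 without RDES shUTR, 35 without SK-N-MC shCDS, 0 without SK-N-MC shUTR), when the members' median ran from −1.06 to 0.012. For RDES minus SK-N-MC, 13 genes passed, 5 with a trended and robust prior, 0 with centred differences and 5 to 85 when a line was left out (23, 85, 5 and 6 in the same order), in fits with the tested term alone. In those fits 0 to 1 members passed, their median ran from −1.00 to 0.20, and MCM10 ran from −2.03 to 0.51. For the level of RDES minus SK-N-MC, 5286 genes passed, and leaving out an array gave 3316 to 6555 genes (3427 without SK-N-MC shCDS, 3316 without SK-N-MC shUTR) and 10 to 21 members, and all 8 shPRC1 arrays gave a members' median of −0.14 (0.02 on 4 arrays). A call at 1 log2 left 29 of 46 lower members in RDES shCDS, 0 of 2 higher in RDES shUTR, 0 of 2 higher in SK-N-MC shCDS, 1 of 4 lower in SK-N-MC shUTR, 0 of 1 lower in the pair labelled RDES shCtrl and 0 of 2 higher in SK-N-MC shCtrl. Centred differences left 0 higher members in RDES shUTR, 0 in SK-N-MC shCDS and 0 lower in the pair labelled RDES shCtrl, where the mean of probe sets gave 2. Except where the construction shows it (fewer arrays, a higher call), the cause of these shifts was not tested. With 1 array for each condition, signal near background limits POLD1, CDT1 and LIG1 most, and no interval can be given for a difference within a line.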
